A study of Mus musculus with 3 samples.

Results

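Divergent coding promoters were examined here as RNAP2-bound sites of the mouse distal forelimb without a Med12 peak. A member was an RNAP2 peak narrower than 4 kb (4000 bp) that lay within 1 kb of annotated protein-coding starts of at least 2 genes on opposite strands and overlapped no Med12 peak. The sites were thus chosen by their RNAP2 peak, its width and the lack of a Med12 peak, all read from the deposited lists. By this rule 814 of the 20479 RNAP2 peaks were members, and 1603 of the 22372 annotated coding genes, or 7.17%, had a start within 1 kb of one. RNAP2 and Med12 were measured by ChIP-seq in chromatin of cells dissociated from distal forelimbs of mouse embryos from normal gestation at stage E12.5. Each antibody has 1 library, and there is an input library without a peak list. The tissue was dissected whole, so its peaks belong to a mixture of cells, and neither a strain nor the number of pooled embryos is given in the labels. The stage is that of the sample labels, whereas the design text of the series names a stage a day earlier. With 1 library per antibody there is no replicate error for any value, and intervals of shares are 95% Wilson intervals, which cover counting error only. Read counts are not part of the peak lists, and the depth behind a single peak is unknown. Positions are in mm9 and genes are those of GENCODE vM1.

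RNA polymerase II (RNAP2) transcribes all protein-coding genes, and Mediator, of which Med12 is a subunit in the kinase module, links transcription factors at enhancers and promoters to the polymerase. In mammals many genes lie head to head, with their starts close together on opposite strands, and share a promoter that is usually rich in CpG. Such pairs are known for housekeeping genes, among them genes of DNA repair, mitochondria and protein synthesis. Because ChIP-seq does not record the strand, a peak at such a promoter cannot be divided between its genes.

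As a check of the tissue, RNAP2 peaks lay at the starts of 5 of 5 limb mesenchyme genes (Prrx1, Msx1, Tbx5, Twist1 and Lhx9). None lay at the starts of 3 muscle, 3 ectoderm or 2 blood genes. Of 2 hindlimb genes, Tbx4 had no peak at its start and Pitx1 had a highest score of 99.35. Of 3 endothelial genes, Kdr had a score of 148, and Cdh5 and Tek had no peak at their starts. Of 3 neural genes, Sox2 had a score of 1166, and Neurod1 and Tubb3 had no peak there. The part of other cell types in the member peaks was not tested.

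The sequences between the starts of some members are short enough to be printed in full. They are given for 8 member pairs of a list of well-known divergent pairs, those with 40 to 300 bp between head-to-head starts and no annotated exon in between, in mm9, on the plus strand and from the base after the minus-strand start to the base before the plus-strand start. Capitals mark matches on either strand to any of 10 short motifs that are listed with their shares further on.
Mrps12/Sars2 (chr7:29526840-29527009): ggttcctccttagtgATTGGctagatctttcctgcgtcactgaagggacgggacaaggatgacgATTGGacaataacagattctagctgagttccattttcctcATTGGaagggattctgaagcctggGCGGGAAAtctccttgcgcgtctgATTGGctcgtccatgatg
Tsc2/Nthl1 (chr17:24769575-24769626): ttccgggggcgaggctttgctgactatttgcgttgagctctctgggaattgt
Hscb/Chek2 (chr5:111268797-111269035): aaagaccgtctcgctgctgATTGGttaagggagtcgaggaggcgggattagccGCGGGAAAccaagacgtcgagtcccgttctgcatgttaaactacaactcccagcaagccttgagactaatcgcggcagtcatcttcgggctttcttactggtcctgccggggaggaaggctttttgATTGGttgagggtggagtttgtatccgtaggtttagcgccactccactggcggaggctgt
Rad51c/Tex14 (chr11:87218457-87218566): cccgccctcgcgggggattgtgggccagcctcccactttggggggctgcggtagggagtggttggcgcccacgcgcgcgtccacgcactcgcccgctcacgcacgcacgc
Aimp2/Pms2 (chr5:144670717-144670832): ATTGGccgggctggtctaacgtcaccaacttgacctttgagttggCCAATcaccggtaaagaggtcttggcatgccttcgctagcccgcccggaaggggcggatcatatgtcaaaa
Toe1/Mutyh (chr4:116480246-116480327): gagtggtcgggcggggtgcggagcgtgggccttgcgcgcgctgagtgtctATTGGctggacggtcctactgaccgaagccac
Pdhx/Apip (chr2:102913671-102913831): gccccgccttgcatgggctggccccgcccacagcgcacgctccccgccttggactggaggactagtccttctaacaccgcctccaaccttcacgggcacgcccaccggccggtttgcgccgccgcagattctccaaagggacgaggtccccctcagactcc
Recql/Golt1b (chr6:142335608-142335740): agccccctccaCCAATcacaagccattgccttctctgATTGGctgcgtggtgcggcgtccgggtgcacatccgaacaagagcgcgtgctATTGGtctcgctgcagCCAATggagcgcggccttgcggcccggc
These stretches were 52 to 239 bp long, within the 40 to 300 bp by which the pairs were chosen. The CCAAT box of the factor NFY (CCAAT, or ATTGG on the other strand) had a match in 5 of them. It occurred 4 times in the 170 bp between Mrps12 and Sars2 and 4 times in the 133 bp between Recql and Golt1b. The E2F letters TTTCCCGC, which read GCGGGAAA on the printed strand, were found between Mrps12 and Sars2 and between Hscb and Chek2. No motif of the set was matched within the printed stretches of Tsc2 and Nthl1, Rad51c and Tex14 or Pdhx and Apip. These stretches end at the starts, and a match that crosses a start is not marked. In 300 bp centred on the midpoint, Tsc2 and Nthl1 had matches for ETS and ZNF143. Rad51c and Tex14 had 1 for E2F there, and Pdhx and Apip had matches for NFY and YY1. The GC content ranged from 50% between Mrps12 and Sars2 to 75.5% between Rad51c and Tex14, and the ratio of observed to expected CpG from 0.67 to 1.

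In most members the genes pointed away from each other. For each member the closest pair of opposite starts was taken, which gave 796 different gene pairs, of which 18 carried 2 member peaks. The starts were head to head, with the minus-strand start on the left, in 672 members, or 82.6% (79.8 to 85.0%). In the other 142 the plus-strand start lay to the left, so that the first parts of the genes overlapped. The median distance between the starts was 122.5 bp for head-to-head members, with quartiles of 67 and 265 bp. It was 264 bp for overlapping ones, with quartiles of 87.75 and 520.5 bp. Over all members it was 137.5 bp, with 605 members (74.3%) under 300 bp, 46 over 1000 bp and the most distant starts 2652 bp apart. When a gene was represented by its outermost start alone, the share of head-to-head members fell to 71.3% and the median distance was 186.5 bp. An additional gene lay within reach of 15 members, as at Rps28, which faces both Ndufa7 and Kank3. In several of these it was another annotation entry with the same symbol, as for Moap1 and Golgb1.

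**Figure D1:**
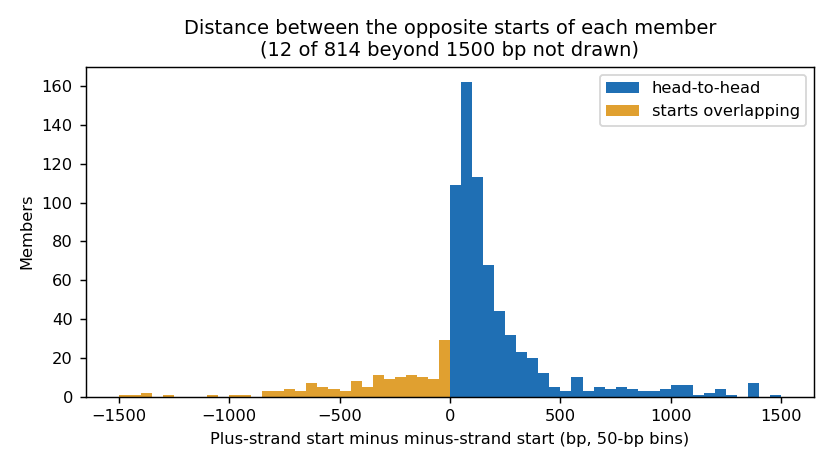
Histogram of the distance between the closest opposite starts (bp, x axis) for members whose starts lie within 1500 bp, in bins of 50 bp with the number of members on the y axis, with positive values for head-to-head starts (blue) and negative values for overlapping ones (orange). Most members lie within 300 bp on the head-to-head side, with a median of 122.5 bp there.

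The RNAP2 peak usually spanned both starts. Of the members, 725 (89.1%) covered both starts of the closest pair, 70 (8.60%) covered 1 start and 19 (2.33%) covered neither and lay within 1 kb of them. In the 607 head-to-head members with both starts covered, the peak reached a median of 676 bp into the plus-strand gene (quartiles 571.5 and 852.5 bp) and 685 bp into the minus-strand gene (574.5 and 874 bp). The strand carries no biological direction, so these values serve as a check. Within a member the longer arm had a median of 822 bp and the shorter arm one of 592 bp, and the longer arm was more than 2 times as long as the shorter in 126 members (20.8%). The centre of the peak lay within 250 bp of the midpoint between the starts in 492 of the 607 (81.1%). Single-direction promoters gave a comparison. There, 5868 of 6378 RNAP2 peaks under 4 kb without Med12 covered the nearest start, with a median of 707 bp downstream and 639 bp upstream of it, and the downstream side was the longer in 63.4%. At 500 bp upstream of a start 72.2% of single-direction peaks were present and at 500 bp downstream 83.4%, whereas at 500 bp on either side of the midpoint the head-to-head members were present in 85.3% to 87.8%. The midpoint lies upstream of both starts, and this difference in the point of reference was not removed.

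**Figure D2:**
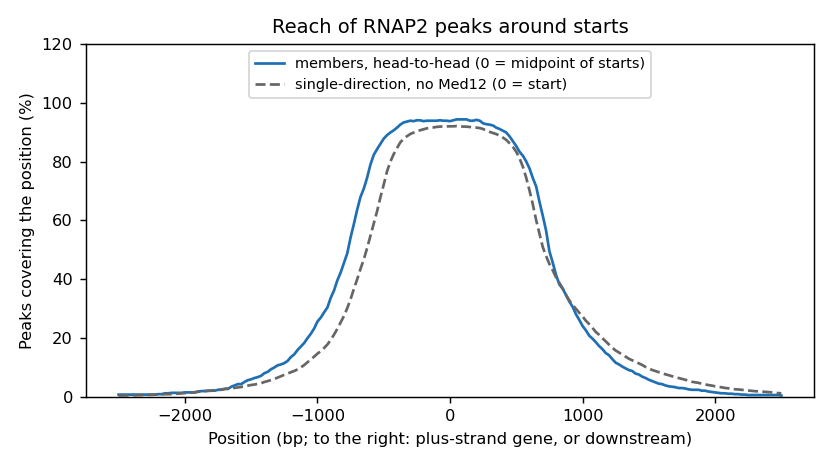
Share of RNAP2 peaks (per cent, y axis) that cover each position (bp, x axis) around the midpoint of the 672 head-to-head members (solid line) and around the start of the 6378 single-direction promoters without Med12 (dashed line, downstream to the right). The solid line is 25.6% at 1000 bp on the left and 24.1% on the right, and the dashed line is 14.7% upstream and 27.4% downstream.

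The RNAP2 score is the peak caller's value for a peak, its p-value as a negative log10 multiplied by 10. Whether the input served as the control for this p-value is not given in the sources used here. Members were chosen with RNAP2 and Med12 peaks, so their scores and widths are given as a description. Scores ran from 40.04 to 3214.25, with a median of 425 and quartiles of 198 and 908. In 720 members (88.5%) the score was at least 100, and 15 had a score under 50. Over all 20479 RNAP2 peaks the median was 123.4 and 56.7% reached 100. Single-direction promoters without Med12 had a median of 256 with quartiles of 108 and 631, and 76.9% of them reached 100 (75.8 to 77.9%, against 86.1 to 90.5% for members). The width of members had a median of 1562 bp and ran from 595 to 3936 bp, against a median of 1377 bp for those single-direction promoters. Members were thus higher in score and wider, but a wider peak comes within 1 kb of starts on both strands more readily. The rule itself therefore bears on this difference, and no result is drawn from it. Head-to-head and overlapping members were alike in width, with medians of 1561 and 1569 bp, and their median scores were 432 and 389. Across head-to-head members the median width was 1443 bp where the starts were under 50 bp apart and 1700 bp where they were at least 400 and under 1000 bp apart, but 1383 bp in the 40 members with starts 1000 bp or more apart. The median score over the same classes was 467, 365 and 344, with its highest value of 524 at 100 to 199 bp.

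The highest score, 3214.25, belonged to the peak between Cep57, a centrosome gene, and Fam76b, whose starts are 609 bp apart, and the next, 3194.53, to that between Wbp11, a splicing gene, and BC049715, at 610 bp. A score of exactly 3100 was shared by 20 members and by 311 RNAP2 peaks in all, so members with this value cannot be ranked. Whether 3100 is a limit set by the peak caller is not given in the sources used here, so the order of these members and the 2 above 3100 is uncertain as well. The widest of them lay at Mrps18b and Ppp1r10 (3936 bp), Hnrpdl and Enoph1 (3801 bp), Sec23a and Sip1 (3432 bp) and Hnrnpk and Rmi1 (3343 bp). Sec23a encodes a coat protein of the secretory pathway, and Hnrpdl and Hnrnpk bind RNA. Other members at 3100 were Cct7 with 1700040I03Rik, Nfya with AI314976, and Dnajb4 with Fubp1. At the other end, the lowest scores were 40.04 at Actn3 and Zdhhc24, 40.45 at Nacc1 and Trmt1, 40.56 at 2610002M06Rik and Fam46d, 40.59 at Gm17649 and Hoxc13, and 41.38 at 1700025K23Rik and Tube1. The peak at Hoxc13 covered neither start and the peaks at Actn3 and Nacc1 only 1 start, whereas the peaks at Tube1 and Fam46d covered both. Besides the peak at 40.45, Nacc1 and Trmt1 had another member peak, with a score of 115.

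Well-known divergent pairs were followed by name. Of 35 pairs, 21 were members, 4 had an RNAP2 peak that overlapped Med12, 1 had a peak of 4 kb or wider without Med12, 1 had no RNAP2 peak at both starts, 7 had no opposite starts within 1 kb in this annotation and 1 had a symbol that the annotation does not use. That last pair is listed as Cox4i1 and Cox4nb, for a subunit of cytochrome c oxidase and its neighbour, and is a member with a score of 403 and 178 bp between the starts.

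Among them, genes of DNA repair and replication had high and low scores. The mismatch repair gene Pms2 with Aimp2 had a score of 412. The helicase gene Recql with Golt1b had 1373, Brca1 with Nbr1 had 1367, and the checkpoint kinase gene Atm with Npat, a regulator of histone genes, had 1126. The flap endonuclease gene Fen1 with 1810006K21Rik had 926 and Rad51c with Tex14, a gene of germ cells, had 627. Lower scores were found at Mutyh and Toe1 (195), Chek2 and Hscb (188), Nthl1 and Tsc2 (183), Wrn and Purg (104) and Tk1 and Afmid (48.68). The peak at Wrn and Purg, whose starts are 798 bp apart, covered the Wrn side alone, whereas each of the other pairs named here had both starts under the peak.

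Among tRNA synthetase genes of the list, members were found with scores of 924 for Hars and Hars2, which encode the cytosolic and the mitochondrial histidine enzymes 26 bp apart, 714 for Sars2 and Mrps12 and 449 for Kars and Terf2ip. The purine synthesis gene Gart with Son had 3100. Pdhx, of the pyruvate dehydrogenase complex, with Apip had 215, and Surf1, an assembly factor of cytochrome c oxidase, with Surf2 had 116 at a distance of 21 bp. The type IV collagen genes Col4a1 and Col4a2, whose starts overlap by 21 bp, shared a member peak that scored 260 over 2669 bp. Close starts thus went with low scores, as at Surf1, and with high ones, as at Hars.

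Outside the members, the pairs with Med12 were Mcm4 and Prkdc (RNAP2 score 1049, Med12 score 87.22), Wrap53 and Trp53 (767 and 49.82), Ears2 and Ubfd1 (2226 and 45.24) and Ppat and Paics (231 and 58.98). The chaperonin genes Hspd1 and Hspe1 lay under an RNAP2 peak that scored 3100 over 6669 bp, without Med12. The pair without a peak was Psmb9 and Tap1, of the antigen-processing pathway, with starts 38 bp apart.

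**Figure D3:**
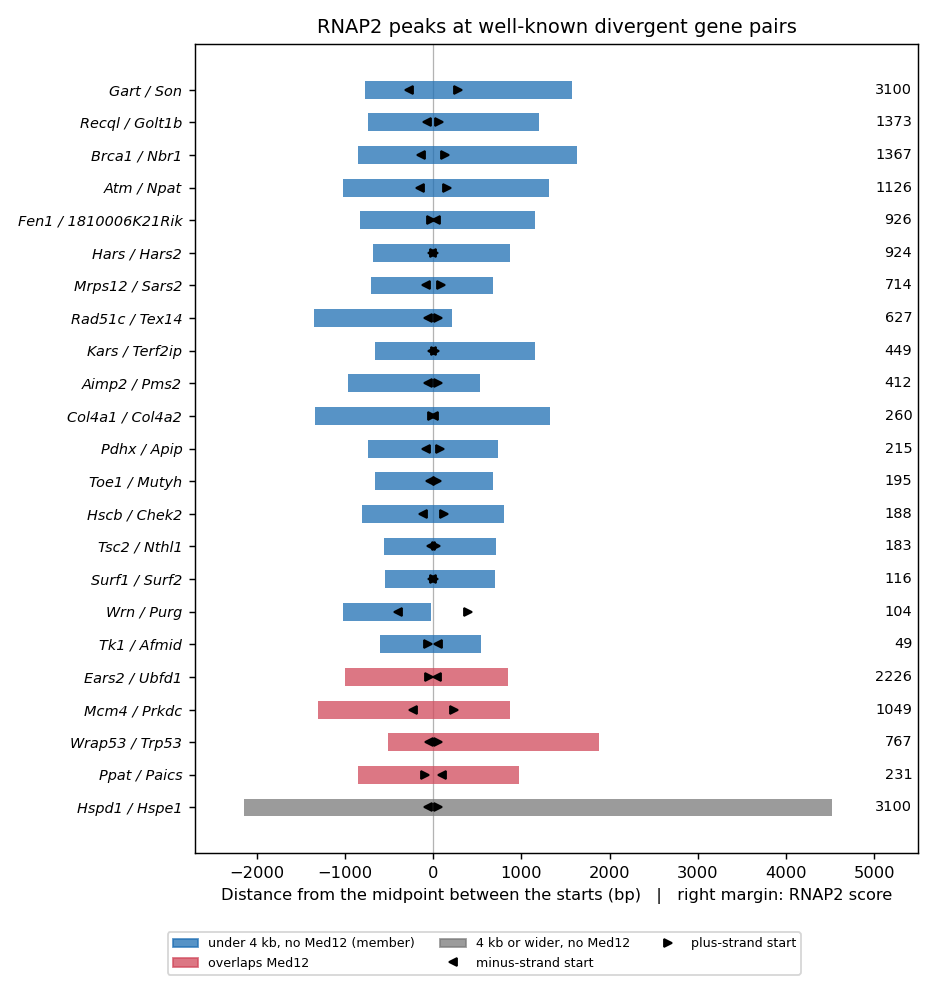
RNAP2 peaks (bars) at 23 of the named divergent pairs, drawn to scale from the midpoint between the starts (bp, x axis), with triangles at the minus-strand and plus-strand starts and the RNAP2 score at the right margin. Blue bars are 18 of the members, red bars the 4 pairs whose peak overlaps Med12 and the grey bar the wide peak at Hspd1 and Hspe1, and members reach to both sides of the starts except at Wrn and Purg, where the bar ends before the Purg start.

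Gene lists were described by how many of their genes lay at members, against 7.17% of all coding genes. This base includes genes without RNAP2. An RNAP2 peak lay at a start of 41.8% of all coding genes, but of 66.0 to 98.5% of the genes of each list. Of all coding genes with such a peak, 1603 of 9349 were at members. Beside that base, mitochondrial ribosome and respiratory chain genes (each 22 of 74), DNA repair (24 of 76) and DNA replication (13 of 49) were higher. Splicing (11 of 54) and chaperones (13 of 60) were nearer to it. Of 77 genes of the mitochondrial ribosome, 22 (28.6%) were at members, with the highest scores at Mrps18b (3100), Mrpl50 (1715), Mrps27 (1536) and Mrpl41 (1394). Respiratory chain genes followed with 22 of 87 (25.3%), led by Ndufa7 (3100), Atp5f1 (2487), Ndufa2 (2380) and Ndufs1 (1808). This list was taken by symbol and also took Cox4nb, which encodes no subunit. For DNA repair the number was 24 of 86 (27.9%), with Mre11a (1378), Recql and Brca1 among the highest. For DNA replication it was 13 of 53 (24.5%), with Orc6 (1092), Fen1, Rnaseh2a (832) and Orc1 (722). Splicing genes had 11 of 56 (19.6%), among them Snrpa (3100) and Snrpd3 (1879), and chaperones had 13 of 69 (18.8%), with Cct5, Cct7 and Dnajb4 at 3100 and Cct3 at 2856. Cct3, Cct5 and Cct7 encode subunits of the same cytosolic chaperonin.

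Other lists had lower shares. Among genes with an RNAP2 peak, tRNA synthetases (6 of 36) lay close to the 1603 of 9349 over all coding genes. The cytosolic ribosome (9 of 78), the proteasome (6 of 45), clustered histones (9 of 66) and numbered zinc finger genes (20 of 245) lay below it. The shares that follow are of all genes of a list. tRNA synthetases had 6 of 38 genes (15.8%), the cytosolic ribosome 9 of 81 (11.1%) and the proteasome 6 of 52 (11.5%). Clustered histones had 9 of 67 (13.4%), a count that was 23 when peaks scoring under 100 were left out of both lists, and numbered zinc finger genes (Zfp) 20 of 371 (5.39%). Of 65 genes of limb patterning, 48 had an RNAP2 peak at a start and 0 were at a member. This list holds Hoxa and Hoxd genes, genes of signalling pathways and transcription factors of the limb bud, and not every developmental gene. Hoxc13 is not in it, and neither are the transcription factor genes Shox2 (with Rsrc1, score 192) and Irx5 (with 4933436C20Rik, score 574), which are members. The signalling genes Sufu (with Actr1a, 110.93 and 89.34), Spry4 (with 9630014M24Rik, 257.34) and Acvr1 (with Upp2, 187.63 and 74.42) are also members outside it. Shox2, Irx5 and these signalling genes were picked out after their values were seen. The count of 0 thus holds for this list and not for limb genes at large. Genes are counted by annotation entry, so a symbol with more than 1 entry, as Hspa14 and Zfp664, counts more than once. The lists differed in how many genes had a head-to-head partner in the annotation, which was 31.2% for the mitochondrial ribosome, 33.7% for DNA repair, 40.3% for clustered histones and 1.54% for limb patterning, against 9.57% of all coding genes. The scores differed between lists as well. The median at members was 2657 for cytosolic ribosome genes, which included Rpl18 and Rps28 at 3100, Rps27 at 2776 and Rps18 at 2731. It was 721 for mitochondrial ribosome genes, 607 for DNA repair and 268 for the proteasome, where Psmc2 was highest at 455, beside 438 over all genes at members.

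Histone genes encode the proteins that package DNA, and 4 members lay between histone genes. Hist1h2bh with Hist1h3f, Hist1h2ae with Hist1h2bg and Hist1h2ak with Hist1h2bn all had a score of 3100, with starts respectively 693, 176 and 216 bp apart, and the pair Hist1h2ba and Hist1h2aa had 279. More histone genes, 17 of 67, lay at divergent promoters with Med12, where 517 of all 22372 coding genes lay. Histone genes are near-identical copies, so the assignment of reads among them is uncertain.

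In 17 members both genes belonged to a list, and in 8 of them to the same list. These 8 included the histone pairs, Hars with Hars2, and the zinc finger pairs Zfp942 with Zfp943 (896) and Zfp944 with Zfp758 (689). The remaining pair was Cox4nb with Cox4i1, which counts only because the respiratory chain list was taken by symbol, as Cox4nb encodes no subunit. Pairs that joined lists were Rps28 with Ndufa7 (3100, starts 29 bp apart), Mrpl50 with the zinc finger gene Zfp189 (1715, 83 bp), Prpf38a with Orc1 (722, 118 bp), Eme1 with Mrpl27 (549, 197 bp) and Mrpl47 with Ndufb5 (326, 20 bp). Psmc2 and Dnajc2 had 2 member peaks, with scores of 455 and 204.

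The absence of Med12 was part of the rule, so the share without it is a count over all divergent promoters and not a result about the members. Of 1067 RNAP2 peaks under 4 kb at divergent coding promoters, 814 (76.3%, 73.6 to 78.7%) overlapped no Med12 peak and 253 (23.7%, 21.3 to 26.4%) did. Over all RNAP2 peaks under 4 kb, 21.3% overlapped Med12, and at single-direction coding promoters the number was 1227 of 7605 (16.1%, 15.3 to 17.0%). The share with Med12 grew with the RNAP2 score in both classes. At divergent promoters it was 12.1% for scores of 40 to 100, 25.7% for 400 to 800 and 43.7% for 1600 or more, and at single-direction promoters it was 6.71%, 18.8% and 38.0%. The divergent value was the higher in each of the 6 score classes, and the intervals of the promoter types overlapped in every one of them. By classes of width the divergent value was also the higher in each of 5, and there the intervals lay apart in 2 classes. For widths of 1000 to 1500 bp the share was 16.9% at divergent promoters (13.5 to 21%) and 11.5% at single-direction ones, and for 2000 to 3000 bp it was 39.6% (33.4 to 46.3%) and 27.7% (25.2 to 30.4%).

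**Figure D4:**
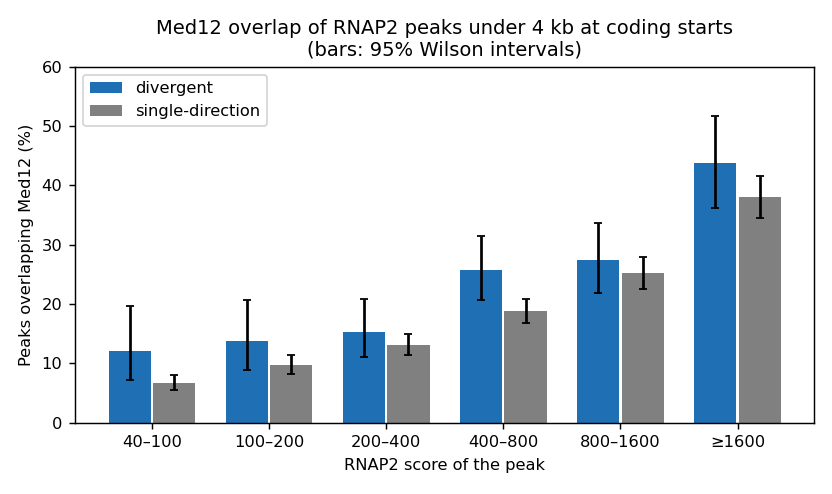
Share of RNAP2 peaks under 4 kb that overlap a Med12 peak (per cent, y axis) by class of RNAP2 score (x axis), at divergent (blue) and single-direction (grey) coding promoters, with 95% Wilson intervals. The share rises from 12.1% to 43.7% and from 6.71% to 38.0% from the lowest to the highest class.

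The Med12 peaks at divergent promoters were mostly low. Their median score was 66.3, against 56.8 over the Med12 list, and 58 of 253 reached 100. When peaks scoring under 100 were left out of both lists, 94.3% of divergent and 94.97% of single-direction peaks had no Med12, so the gap between the classes was no longer seen. The lists hold only sites above a score minimum, so weaker Med12 binding at a member would not be seen in them. By distance, Med12 overlapped 18.7% of head-to-head peaks with starts under 50 bp apart (13 to 26.1%). It overlapped 31.5% of those at least 400 and under 1000 bp apart (22.8 to 41.7%). For starts 1000 bp or more apart the share was 28.6% (18.4 to 41.5%). These intervals overlap, and peak width, which differed between such classes among members, was not held fixed. Divergent peaks with Med12 also had the higher RNAP2 scores, with a median of 767, and were wider, with a median of 1854 bp.

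Since members overlap no Med12 peak by the rule, the distance to Med12 is a description. The nearest Med12 peak was a median of 79794 bp away, against 76865 bp for single-direction promoters without Med12, and lay within 1000 bp of 14 members (1.72%) and within 5000 bp of 30 members (3.69%), against 5.90% of those promoters within 5000 bp. Just inside the rule were the members at Ing2 and AA386476, 74 bp from a Med12 peak with a score of 49.62, at 1810020D17Rik and Rsf1, 376 bp from one, and at Abhd8 and Mrpl34, 377 bp from one. Just outside it, the RNAP2 peak at Efnb2 and 4921522P10Rik shared 51 bp with a Med12 peak, that at A830073O21Rik and Fam174b 110 bp and that at Gnl3 and Pbrm1 240 bp. By width, the widest members were those at Mrps18b, Hnrpdl and Thoc4, the last of 3796 bp. The narrowest divergent peaks of 4 kb or more without Med12 lay at Arf4 (4090 bp), Zbtb1 and Zbtb25 (4131 bp) and Srsf2 and Mfsd11 (4430 bp).

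Genes of annotated divergent pairs had an RNAP2 peak more often than other coding genes. Of 1081 annotated head-to-head pairs with starts within 1000 bp, 903 (83.5%, 81.2 to 85.6%) had an RNAP2 peak within 1 kb of both starts. In 675 of the 1081 pairs the peak was under 4 kb and overlapped no Med12, in 221 a peak overlapped Med12 and in 7 a peak was wide without Med12. By the outermost start of each gene, 1778 of the 2141 genes of these pairs had an RNAP2 peak within 1 kb (83.0%, 81.4 to 84.6%), against 7201 of 20231 other coding genes (35.6%, 34.9 to 36.3%). The intervals do not overlap, but the 2 genes of a pair can share 1 peak, which was not allowed for. The groups were also not matched for CpG content or kind of gene, so the part of the arrangement was not tested. With starts 0 to 99 bp apart 85.0% of pairs had a peak, and with 400 to 1000 bp 72.5% did (65.0 to 79.0%).

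The sequence around the starts was not used by the rule beyond the position of the genes. Windows from 250 bp before to 50 bp after the start were read for the 1589 genes of the closest pairs, for 506 genes of divergent promoters with Med12, for 6003 genes of single-direction promoters without Med12 and for 22367 coding genes. The windows of a pair partly overlap, so they are not independent. GC content had a median of 63.3% at members, 62.7% at single-direction promoters and 55.3% over all coding genes. The ratio of observed to expected CpG had medians of 0.855, 0.81 and 0.542, and was at least 0.6 in 88.5%, 82.6% and 45.8% of windows. Divergent promoters with Med12 had 61.3% GC and a ratio of 0.866.

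Motifs were sought as exact letters on both strands. The ETS letters CCGGAAGT, of a family of factors that includes GABPA, were found in 14.0% of windows at members (12.4 to 15.8%), 9.40% at single-direction promoters (8.68 to 10.2%) and 4.82% over all coding genes. At divergent promoters with Med12 they were found in 11.5% (8.97 to 14.5%), an interval that overlaps that of the members. For TATAAA, the TATA box, the order was the reverse, with 3.40% at members (2.61 to 4.41%), 5.85% at single-direction promoters (5.28 to 6.47%) and 13.4% over all coding genes. Divergent promoters with Med12 had 5.34% (3.69 to 7.65%), an interval that overlaps those of members and of single-direction promoters in these windows. In a longer window, given further on, it overlapped neither. The NFY letters CCAAT were as frequent at members (39.8%) as at single-direction promoters (38.9%) and over all coding genes (37.9%), within their intervals. The SP1 letters GGGGCGGG were found in 32.0%, 35.1% and 21.5%, and the NRF1 letters GCATGCGC in 6.42%, 5.86% and 3.35%. AAGATGGCG for YY1 had 4.91%, 4.16% and 1.83%, the E-box CACGTG had 11.4%, 11.1% and 7.78%, and the CRE TGACGTCA had 3.78%, 4.28% and 2.35%. TTTCCCGC for E2F had 3.21%, 2.15% and 1.37%, and ACTACAATT for ZNF143 had 1.07%, 0.783% and 0.483%. An exact match is a description of the letters and not of a bound site, and the E2F and SP1 letters can overlap in GC-rich runs.

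**Figure D5:**
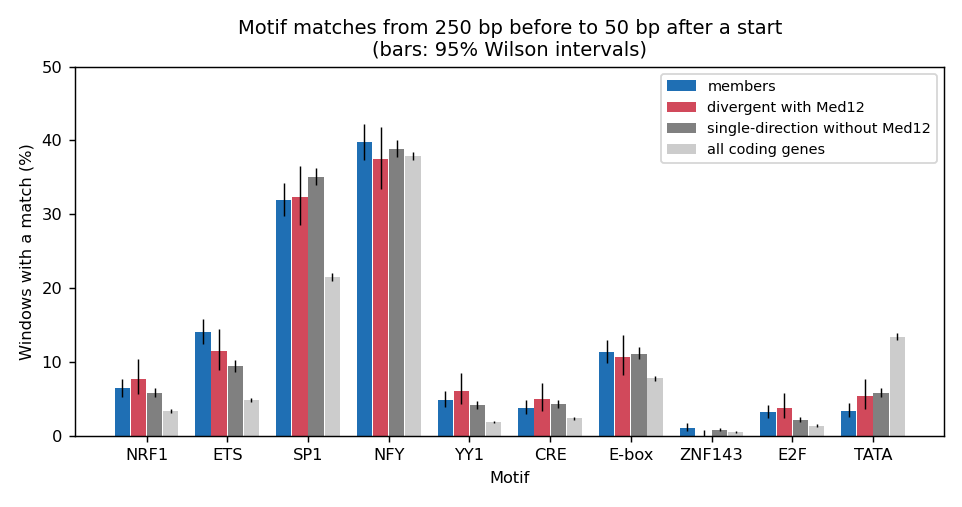
Share of windows with a match (per cent, y axis) to each of 10 motifs (x axis) at members, at divergent promoters with Med12, at single-direction promoters without Med12 and over all coding genes, with 95% Wilson intervals. For ETS the members stand at 14.0% and the single-direction promoters at 9.40%, and for TATA at 3.40% and 5.85%.

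Within the members the motifs were read in 300 bp centred on the midpoint between the starts. CCAAT was present in 306 of 814 (37.6%), GGGGCGGG in 234 (28.7%) and CCGGAAGT in 112 (13.8%). No motif of the set was matched in 229 members (28.1%) and 1 was matched in 321 (39.4%). The median RNAP2 score was 477 with CCGGAAGT and 420 without it, 424 with CCAAT and 429 without, and 477 with GGGGCGGG and 422 without. The 29 members with TATAAA had a median of 892, with quartiles of 256 and 1378, against 424 and quartiles of 198 and 877 for the other 785. These 29 include the histone pairs Hist1h2ak with Hist1h2bn, Hist1h2bh with Hist1h3f and Hist1h2ae with Hist1h2bg, all at 3100, where read assignment is uncertain. Rps28 with Ndufa7, also at 3100, is among them too. A gene pair with more than 1 member peak counts by each peak, and a median without these sites was not computed. The quartile ranges of members with and without a motif overlapped for all 10 motifs.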

How the data were processed

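ChIP-seq of RNAP2 and Med12 was performed on distal forelimbs, with 1 library each and 1 input. According to the submitters' processing notes, reads were aligned to mm9 with Bowtie and peaks were called with MACS 1.4.1. The authors deposited a peak list per antibody, in which a score, the negative log10 of the p-value multiplied by 10, is given for every peak. The input has no peak list, and read counts are not used here. Coding transcript starts were taken from GENCODE vM1 and sequences from NCBIM37 (mm9). Overlap required at least 1 bp and was checked with bedtools 2.31.1. The other steps were run in Python 3.11.15 with numpy 2.4.6, scipy 1.17.1 and matplotlib 3.10.9, and were tested on simulated data. With 1 library per antibody no test was made, and shares carry 95% Wilson intervals. Named genes were those of 35 well-known pairs, the members with the 10 highest and 5 lowest scores, the 3 sites on each side of each limit, members with more than 1 gene on a strand, the divergent peaks with the 10 highest Med12 scores and up to 4 genes per list. Other genes of pairs with both partners in a list were named after their values were seen. The members and lists were chosen with earlier results of these data known. A few genes that these rules name are not reported here. In all, 8 alternative settings were tried.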

Additional observations from a re-analysis of the deposited data

How the results depend on the processing

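No paired analysis was possible because RNAP2 and Med12 were each measured in a single library, without groups to test. Over the 7 alternative settings that could change it, the number of members lay between 775 and 905. Over all 8 settings, 53 of 76 recomputed values stayed near the reported value and 23 moved away from it. Near meant within the 95% interval of a reported share or median, or within 1.5 times a reported count. With peaks scoring under 100 left out of both lists, the share of divergent peaks without Med12 was 94.3% and that of single-direction peaks 94.97%, the members' median score was 557.9 and their width 1637 bp, the median score of single-direction promoters was 408.7, and 75.95% of annotated pairs had RNAP2 and 5.18% RNAP2 with Med12. With those under 50 left out these shares without Med12 were 82.17% and 87.24%, 15.82% of pairs had RNAP2 with Med12, and the single-direction median was 288.2. The single-direction share without Med12 was 82.34% when Med12 within 1000 bp counted as overlap and 82.94% without a width limit, where 1 limb patterning gene became a member. With 1 start per gene the distance was 186.5 bp, 71.34% of members were head to head and the single-direction score was 274.3. In windows from 500 bp before to 100 bp after a start, matches at members were 16.7% for ETS, 40.7% for SP1, 54.4% for NFY, 7.05% for YY1, 16.7% for the E-box, 4.47% for E2F and 7.36% for TATA, as a longer window holds more letters. There the TATA interval of members (6.18 to 8.75%) lay apart from that of divergent promoters with Med12 (11.9%, 9.32 to 15%). Single-direction promoters had 16.0% for TATA (15.1 to 17%). For ETS the members (15 to 18.7%) still overlapped divergent promoters with Med12 (13.6%, 10.9 to 16.9%) and lay above single-direction ones (10.9%, 10.1 to 11.7%). The peak lists give no depth, so weak binding under their score minimum could not be assessed.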

Other observations

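Of the 1081 annotated head-to-head pairs, 178 had no RNAP2 peak within 1 kb of both starts (16.5%, 14.4 to 18.8%). Among them were the respiratory chain genes Ndufa1, with Rnf113a1 at 82 bp, and Ndufa8, with Morn5 at 52 bp, the cytosolic ribosome gene Rps2, with Rnf151 at 59 bp, the DNA repair gene Fancb, with Mospd2 at 217 bp, and Sirt1 with Dnajc12 at 739 bp. A gene with a clone-style name was part of 73 of the 178 pairs (41.0%), against 171 of the 675 pairs with RNAP2 and no Med12 (25.3%).

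The divergent RNAP2 peaks under 4 kb with the highest Med12 scores lay between the zinc finger genes Zfp668 and Zfp646 (Med12 score 578.87, RNAP2 score 1065.82), at Rad17, a checkpoint gene, and Taf9, a subunit of TFIID (412.13 and 197.65), and at the splicing gene Srsf7 with Ttc39d (359.9 and 3100). The next were at 2810408A11Rik and Neurl4 (359.31 and 570.65) and at Nhlrc3 and 2810046L04Rik (327.01 and 82.64), so a high Med12 score stood beside high and low RNAP2 scores. The limb patterning gene Sox6 was the only one of its list in an annotated head-to-head pair, with 1110006G14Rik at 932 bp, and its RNAP2 peak was 4587 bp wide with a score of 632.24 and no Med12.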
